A study of Mus musculus with 4 samples.

Results

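Transcription initiation at 7 complement component genes was examined in 2 tissues of the mouse embryo, liver and yolk sac. The genes were C3, Hc, C2, C4b, Cfb, Cfi and Masp1. They were chosen by name from the 21951 protein-coding genes of the annotation, and all 7 were found in it. The data were 4 libraries, 2 per tissue, made by PRO-seq. The assay extends the nascent RNA of engaged RNA polymerases in isolated chromatin and so maps where transcription is under way. Each library was made from tissue of 6 pooled embryos at E14.5. All embryos, of both tissues, had C57BL/6J mothers and fathers of a mixed C57BL/6J and CAST/EiJ background. The fathers were selected to carry only CAST/EiJ polymorphisms at the Dlk1/Gtl2 locus, and the sample labels write the strains as C57BL/6h and CAST/EiJ. No treatment or mutation was labelled.

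Complement is a cascade of blood proteins that marks microbes and damaged cells for removal. The classical and lectin pathways cut C4 and C2, and the alternative pathway uses factor B. All routes form an enzyme that splits C3, and then one that splits C5, the product of Hc. In adults the liver hepatocyte makes most of these proteins, while the C1q chains come largely from macrophages. The fetal liver is also a blood-forming organ, and the endoderm of the yolk sac secretes many plasma proteins that the liver makes later.

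The values are dREG peaks, intervals classed from run-on reads as regions where transcription starts, at promoters or at distal sites such as enhancers. A promoter peak is one that overlapped the 500 bp on either side of any annotated start of the gene. The territory of a gene is its body with 20 kb added on each side. The 2 lists of liver had 24863 and 24333 entries and those of yolk sac 50525 and 43055, and the number of reads behind them is unknown. Each peak carries a score without a unit, given here only as a percentile within its own list. Since the lists differ in length, percentiles of different libraries stand side by side and show no change. With 2 libraries against 2, the smallest p-value an exact permutation test can give is 0.333. In tissue this mixed, fewer cells of a type and less transcription per cell cannot be told apart.

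The lists also bear on what the tissues held, to be read beside the shares of all protein-coding genes. Of these, 56.1% and 57.9% had a promoter peak in the liver libraries and 63.8% and 62.4% in the yolk sac libraries. Promoter peaks in both liver libraries alone were seen at 1.01% and in both yolk sac libraries alone at 5.25%. All 5 erythroid markers had a promoter peak in both liver libraries and none in either yolk sac library. Of 7 hepatocyte markers, 5 and 4 were called in the liver libraries and 5 and 5 in the yolk sac libraries. Alb, Ttr and Apoa1 were called in all 4 libraries and Afp in all but liver replicate 2. Cps1 was called in liver only, Fgb in yolk sac only and Serpina1a in no library. Of 7 yolk sac endoderm markers, 5 and 2 were called in liver and 7 and 7 in yolk sac, with Amn and Cubn called only in the 2 yolk sac libraries. Afp and Ttr are on both of these lists. Of 8 macrophage markers, 3 and 3 were called in liver and 8 and 7 in yolk sac. For 6 mesenchymal markers the numbers were 3 and 5 in liver against 6 and 6 in yolk sac, and for 4 endothelial markers 3 and 4 against 4 and 4. The part of these differences in the results on complement genes was not tested.

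The central components C3 and Hc had promoter peaks in liver alone, a call that at Hc depended on the window, as given below. The DNA before their starts is given first because peaks covered it in liver alone. Promoter sequences for 2 of the 7 genes, C3 and Hc, were found in the RefSeq table of GRCm38.p6. Each line gives the 250 bases before the RefSeq start, 5′ to 3′ on the strand of the gene, with motif matches in capitals. The C3 sequence lies at chr17:57228137-57228386 and the Hc sequence at chr2:35061413-35061662, both on the minus strand. The RefSeq start of C3 is the GENCODE main start, and that of Hc lies 26 bp inside the GENCODE transcript.
C3: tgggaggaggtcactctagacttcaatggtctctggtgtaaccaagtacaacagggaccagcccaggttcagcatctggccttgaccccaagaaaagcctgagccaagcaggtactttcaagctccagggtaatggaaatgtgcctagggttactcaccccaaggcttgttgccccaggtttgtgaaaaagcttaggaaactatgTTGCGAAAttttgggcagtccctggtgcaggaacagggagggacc
Hc: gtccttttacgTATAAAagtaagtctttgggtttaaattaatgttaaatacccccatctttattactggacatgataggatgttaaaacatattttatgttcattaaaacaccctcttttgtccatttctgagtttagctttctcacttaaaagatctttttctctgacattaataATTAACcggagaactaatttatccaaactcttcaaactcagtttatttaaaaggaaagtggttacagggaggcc

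In both liver libraries a peak covered all 250 of these bases, at C3 as at Hc. In the yolk sac libraries a peak covered 0 of them. The nearest yolk sac peak was 2415 and 1865 bp away at C3 and 511 and 611 bp away at Hc.

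A search for 8 motifs was made on both strands, over the 250 bases before to 50 after the start. The capitals mark the 3 matches in the printed bases, which do not overlap. In C3 they mark TTGCGAAA, a match to TTGCNNAA, the C/EBP motif, 45 bases before the start base. This motif occurs in 10.8% of 32851 promoter sequences of the same length. C3 also held TATAAA from 14 to 19 bases after its annotated start, beyond the printed bases. In Hc the capitals mark TATAAA 239 bases before the start and ATTAAC 74 bases before it. ATTAAC is the reverse complement of GTTAAT, the core of the HNF1 motif, which 7.10% of promoters hold, and TATAAA is in 13.62%. Neither sequence held CAAAGTCCA, the HNF4 motif, or the FOXA motif TGTTTAC. The interferon response and NF-kB motifs had no match either, nor did AGATAA, the motif of GATA factors. A match, or its lack, is one of letters only.

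C3, the protein on which all pathways converge, spans 57203970 to 57228136 on chromosome 17 (GRCm38, minus strand). Its promoter peak was 1752 bp wide in liver replicate 1 and 1402 bp in replicate 2, at the 44.1 and 64.4 percentiles of their lists. It reached from 366 bp before to 1385 bp after the main start in replicate 1, and from 466 bp before to 935 bp after it in replicate 2. No yolk sac library had a promoter peak at C3. This liver-only pattern was seen at 1.01% of all protein-coding genes. Yolk sac libraries instead had a peak further upstream, 2665 to 3116 bp before the start in replicate 1 and 2115 to 3116 bp in replicate 2. That region was called in neither liver library.

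Initiation upstream of C3 was shared by the tissues. A region 4565 to 8416 bp before the start (chromosome 17, 57232701 to 57236552) was called in all 4 libraries, and no annotated start lay in reach of it. It covered 2402 and 2702 bp in the liver libraries and 3802 and 3752 bp in the yolk sac libraries. The means were 2552 ± 212 bp in liver and 3777 ± 35.4 bp in yolk sac (SD, n = 2), without overlap. Of regions called in all 4 libraries, 42.6% were covered over more bases in each yolk sac library than in any of liver. Its peak ranked at percentiles 36.9 and 31.1 in liver and at 89.8 and 65.3 in yolk sac. A further shared region, 13315 to 14766 bp upstream, covered 1402 and 752 bp in liver and 1102 and 102 bp in yolk sac, so that the tissues overlapped. Beyond the 3′ end of C3, both yolk sac libraries had a peak at 57201751, of 1302 and 1202 bp, at the 91.6 and 94.5 percentiles. Neither liver library had it. A small liver-only region, of 552 and 202 bp, lay at a start of the neighbour Tnfsf14. C3 was flanked by yolk sac peaks on both sides, with none at its own start.

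**Figure D1:**
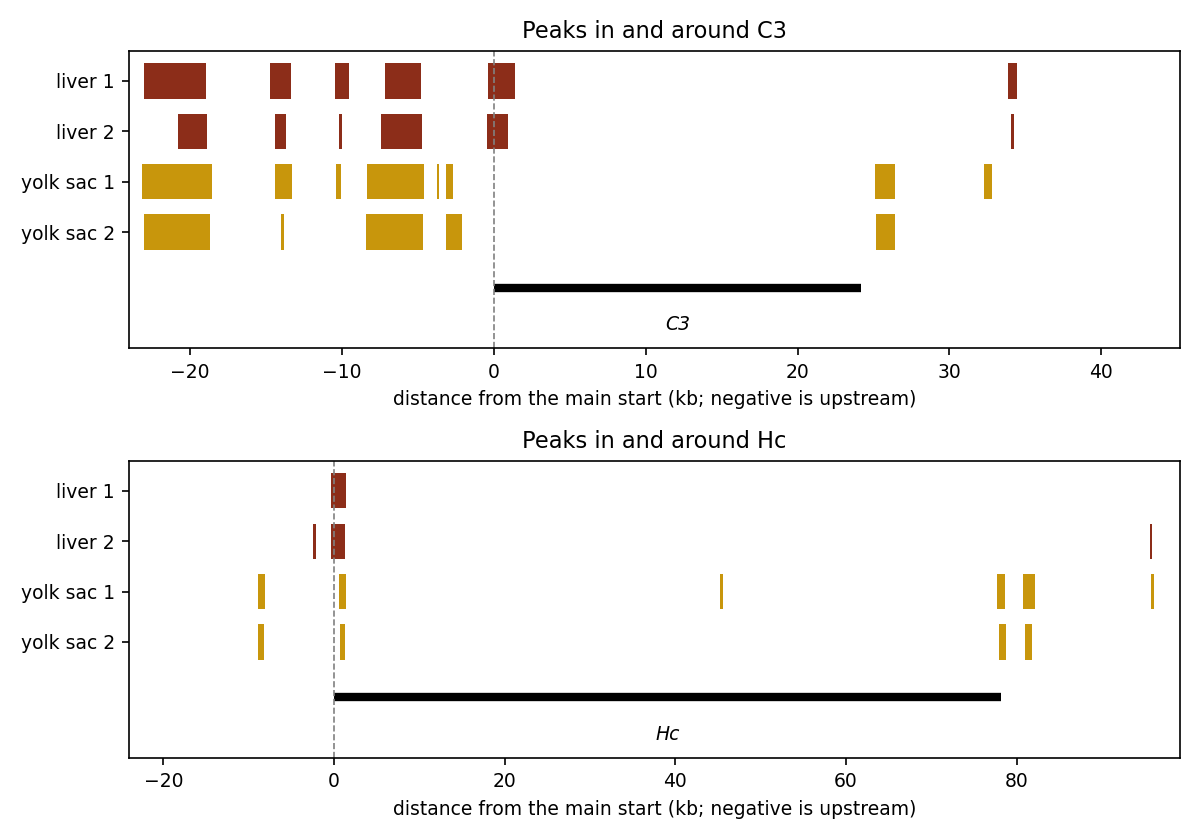
Peaks of each library (bars, drawn to scale) in and around C3 (upper panel) and Hc (lower panel), by distance in kb from the main start, with the gene as a black line. The liver peaks cross both starts, the C3 start has no yolk sac peak within 2115 bp, and at Hc the yolk sac peaks begin 536 and 636 bp inside the gene.

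Hc, which encodes complement C5, spans 34983331 to 35061438 on chromosome 2 (minus strand). Its liver promoter peaks were 1802 and 1652 bp wide, at the 67.8 and 35.4 percentiles, and both reached 364 bp before the main start. The yolk sac libraries had a peak in the same place, but narrower, at 802 and 652 bp, and at the 32.0 and 20.4 percentiles. These peaks lay wholly inside the gene, from 536 and 636 bp after the start onward. Over the whole region the mean covered length was 1727 ± 106 bp in liver and 727 ± 106 bp in yolk sac (SD, n = 2), and the tissues did not overlap. More bases in both liver libraries were found at 18.8% of regions called in all 4. The call at Hc therefore depended on the window: with 1000 bp either side of a start, all 4 libraries had a promoter peak.

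Away from its start, Hc had yolk sac peaks and few liver peaks. Both yolk sac libraries had a peak 8113 to 8914 bp upstream (35069551 to 35070352), of 802 and 702 bp. They shared another across the 3′ end of the gene (34982751 to 34983702), of 902 and 802 bp, and one more just beyond it (34979351 to 34980702), of 1352 and 852 bp. None of the 3 was called in a liver library. Liver replicate 2 alone had a peak of 102 bp at 35063801, at the 0.296 percentile. The whole territory had 1 and 3 peaks in the liver lists against 6 and 4 in those of yolk sac.

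Among the convertase genes, C4b showed the reverse of the C3 pattern. C4b, whose protein is cut by both the classical and the lectin pathway, spans 34728380 to 34743882 on chromosome 17 (minus strand). Both yolk sac libraries had a peak across its start, of 502 and 652 bp, reaching 420 bp upstream in each. No liver library did. A yolk-sac-only promoter call was made at 5.25% of protein-coding genes. The peaks stood low in their lists, at the 24.1 and 31.6 percentiles. When each list was reduced to its 24333 highest-scoring peaks, which shortened almost only the yolk sac lists, no library kept the call. With a window of 1000 bp liver replicate 1 was called too, but only through a peak of 102 bp beyond the 3′ end, in reach of an internal start. That peak lay 15580 to 15681 bp after the main start. The C4b territory had 1 and 0 liver peaks against 6 and 2 yolk sac peaks.

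C4a, the near-identical copy of C4b (34809092 to 34823464, annotated here as a processed transcript), was looked at beside it. How reads that match both copies were placed is not given in the sources used here, so the peaks of both genes are uncertain. Around the 3′ end, both genes had a peak in the same 3 libraries. In yolk sac replicate 1 it ran from 122 bp before to 629 bp beyond the end of C4b and from 110 bp before to 591 bp beyond the end of C4a. In yolk sac replicate 2 it ran from 172 bp before to 679 bp beyond the end of C4b, against 60 and 491 bp at C4a. In liver replicate 1 small peaks of 102 and 252 bp lay just beyond the ends of C4b and C4a. Inside C4a the yolk sac libraries had 2 more peaks, at 34811001 and 34815101 in replicate 1, near internal starts, and the liver libraries had none. No library had a peak at the 5′ end of C4a, where C4b had its yolk sac peak.

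C2, the protease that pairs with C4b, was called in all 4 libraries, as were 53.8% of protein-coding genes. Its annotation spans 34862604 to 34898265 on chromosome 17 (minus strand) and includes several starts. At the main start (34882100) the peak was 602 and 402 bp wide in liver and 952 and 752 bp in yolk sac, or 502 ± 141 and 852 ± 141 bp (SD, n = 2). A wider peak in both yolk sac libraries was seen at the main start of 34.7% of 10825 genes called there in all 4 libraries. This peak was at the 29.8 and 29.8 percentiles in liver and the 55.5 and 48.4 percentiles in yolk sac. A start of the predicted gene Gm20547 lay in reach of the same peak. Upstream starts of C2 fell in peaks shared with Zbtb12 and with Ehmt2, both called in all 4 libraries.

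Cfb, factor B of the alternative pathway, lies next to C2 (34856374 to 34862518) and had almost no called peaks. One library, yolk sac replicate 2, had a peak of 102 bp at 34862001, between 412 and 513 bp after the main start. Its percentile was 1.83, and it was within reach of an internal start. A promoter peak in that library alone occurred at 0.419% of protein-coding genes. The other 3 libraries had no peak in the gene. The Cfb territory had 3 and 4 liver peaks and as many, 3 and 4, from yolk sac, nearly all at starts of C2, Nelfe and Skiv2l, or Dxo and Stk19.

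**Figure D2:**
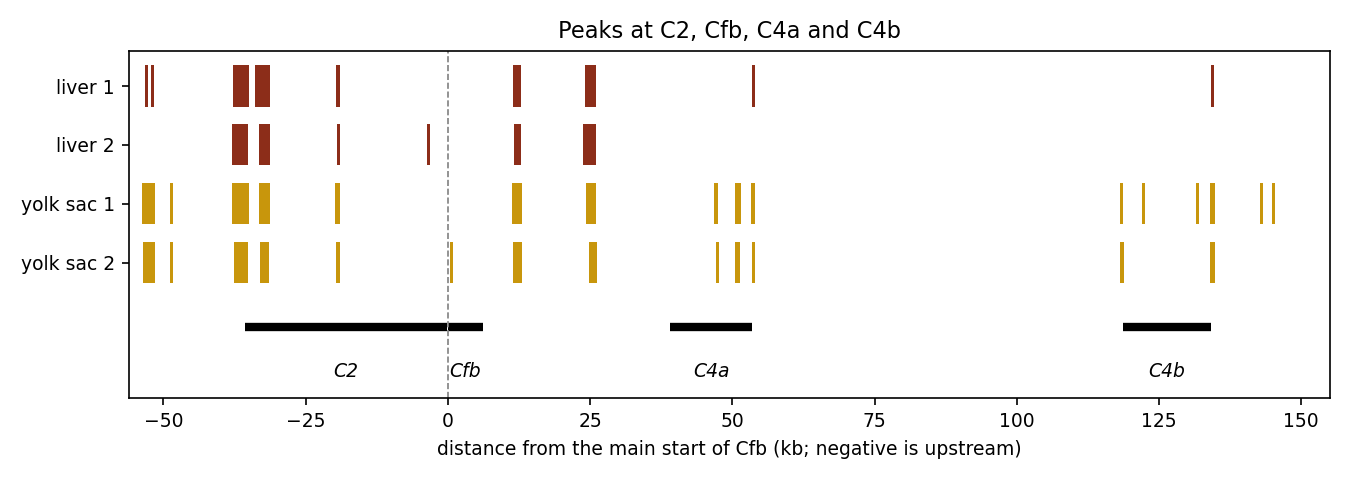
Peaks of each library (bars, to scale) across the stretch of chromosome 17 with C2, Cfb, C4a and C4b, by distance in kb from the main start of Cfb, with genes as black lines. All peaks in the territories of C2, Cfb and C4b and over C4a are drawn. The shared peaks stand at starts of C2 and its neighbours, the start of Cfb is bare but for 102 bp in yolk sac replicate 2, and C4b has a start peak in yolk sac alone.

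Cfi, factor I, which inactivates C3b and C4b, spans 129835884 to 129875332 on chromosome 3 (plus strand). It was called in all 4 libraries, with main-start peaks of 1552 and 1602 bp in liver and 3002 and 2052 bp in yolk sac. The means were 1577 ± 35.4 bp and 2527 ± 672 bp (SD, n = 2), and both yolk sac peaks were wider than either liver peak. The same was seen at 34.7% of 10825 genes called at the main start in all 4 libraries. In yolk sac both peaks reached 1536 bp upstream of the main start and in liver 1136 bp. A separate small peak of 252 bp, or 302 bp in liver replicate 2, lay between 1114 and 1415 bp downstream in 3 libraries. In yolk sac replicate 1 the wide peak took in that site. Within the gene, a region 9114 to 10415 bp after the start (129845851 to 129847152) was called by the 2 yolk sac libraries alone. At the neighbour Pla2g12a 1 region was liver-only (129880951 to 129881852) and another yolk-sac-only (129892301 to 129892902).

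Masp1, a serine protease that acts with mannose-binding lectin, spans 23449417 to 23520815 on chromosome 16 (minus strand). Its promoter peak was present in all 4 libraries, at 1452 and 1202 bp in liver and 1902 and 1452 bp in yolk sac, so that the tissues met at 1452 bp. Starts of Rtp4 and Gm45338 lay in reach of it. Several regions inside the gene were called in 1 tissue only. Liver had a peak 2363 to 3414 bp after the start (23517401 to 23518452), of 852 and 1052 bp, that neither yolk sac library had. Both yolk sac libraries had peaks in 5 regions that neither liver library had, and 3 further regions were called in a single yolk sac library. Of the 10 regions of the territory without an annotated start in reach, 5 were thus yolk-sac-only and 1 liver-only. Both numbers are near the shares of all such regions, 40.3% and 8.01%. The 5 lay at 4413 to 5364, 14363 to 15064, 21563 to 23314 and 63613 to 64614 bp after the start, and beyond the 3′ end at 82213 to 83714 bp. The region at 21563 bp was covered over 1752 and 1452 bp, at the 87.0 and 56.6 percentiles. The region at 4413 bp was covered over 952 and 102 bp, at the 53.6 and 1.86 percentiles, so its call in yolk sac replicate 2 was marginal. Masp1 territory counts were 3 and 3 for liver against 8 and 8 for yolk sac, the widest mean gap of the 7 genes. With lists of equal length they were 3 and 3 against 5 and 3.

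**Figure D3:**
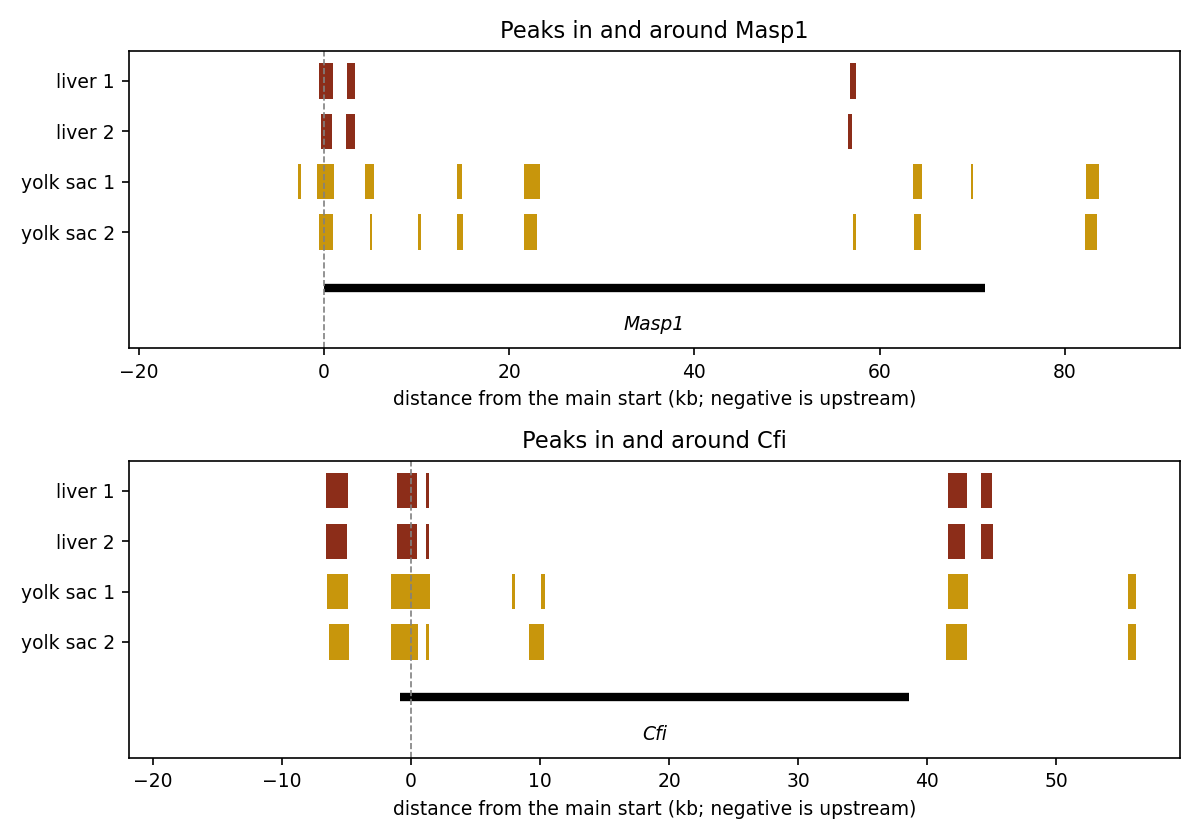
Peaks of each library (bars, to scale) in and around Masp1 (upper panel) and Cfi (lower panel), by distance in kb from the main start, with the gene as a black line. Both starts have a peak in all 4 libraries, and Masp1 has 5 regions called in both yolk sac and neither liver library and 1 called in both liver and neither yolk sac library.

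Across the 7 genes the number with a promoter peak did not separate the tissues. Liver had 5 and 5 and yolk sac 4 and 5, or 5 ± 0 and 4.5 ± 0.707 (SD, n = 2; exact permutation p = 1). Of all protein-coding genes, 56.1% and 57.9% had a promoter peak in the liver libraries and 63.8% and 62.4% in the yolk sac libraries. The makeup differed: C3 and Hc were liver-only, C4b was yolk-sac-only, C2, Cfi and Masp1 were called in all 4 libraries, and Cfb in 1. With a window of 1000 bp Hc was called in all 4 libraries and C4b also in liver replicate 1, there through a peak beyond the 3′ end. With 24333 peaks per list, C3 and Hc kept their liver-only calls, C4b and Cfb had none, and Cfi lost its call in yolk sac replicate 1. The numbers were then 5 and 5 against 2 and 3. This cut takes no peak from liver replicate 2, few from liver replicate 1 (24863) and many from yolk sac (50525 and 43055). It can remove yolk sac calls but hardly any liver call, so it did not test the liver-only calls of C3 and Hc. In the higher-scoring 50% of each list, C3 was called in liver replicate 2 alone and Hc in liver replicate 1 alone.

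**Figure D4:**
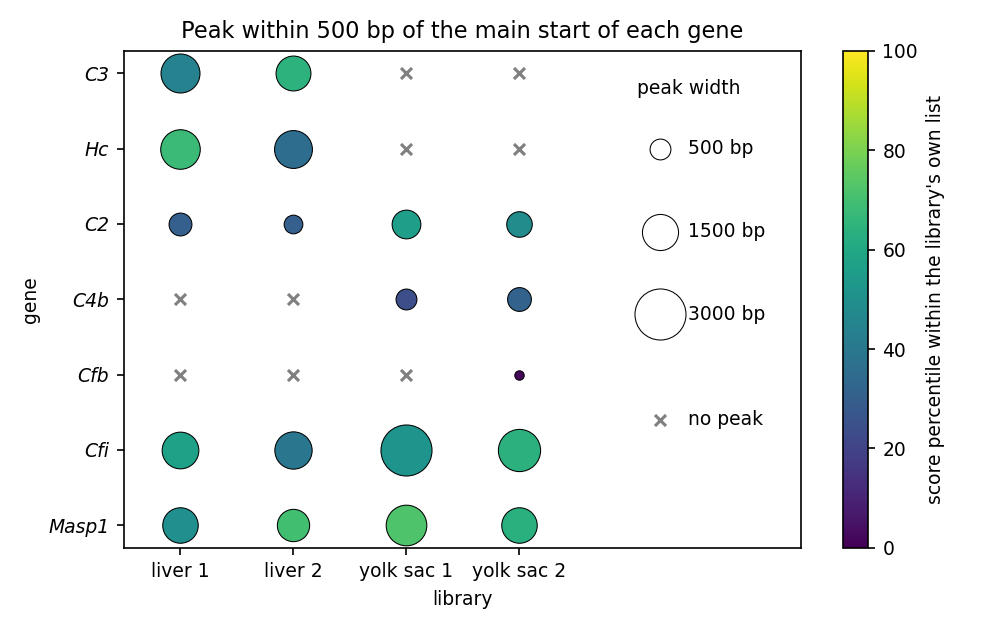
Peak within 500 bp of the main start of each gene (rows) in each library (columns), where circle area is the peak width in bp, colour the score percentile within the library's own list, and a grey cross no peak. C3 and Hc have circles in liver alone, C4b in yolk sac alone, and C2, Cfi and Masp1 in all 4 libraries.

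Yolk sac had more peaks than liver in the combined territories, where those of C2 and Cfb overlap and were counted once. Liver had 22 and 23 and yolk sac 40 and 32, or 22.5 ± 0.707 and 36 ± 5.66 (SD, n = 2), a 1.60-fold difference (exact permutation p = 0.333). The log2 ratio of liver to yolk sac was -0.68 here and -0.93 for the lengths of the whole lists. Gene by gene, the median ratio was -0.42 over the 14696 protein-coding genes with a territory peak in every library and -0.25 over the 6 members among them, which leave out C4b. The combined ratio thus lay between the list lengths and the median gene. Peaks at annotated starts were nearly equal, at 14 and 14 in liver and 13 and 14 in yolk sac. Peaks elsewhere numbered 8 and 9 in liver and 27 and 18 in yolk sac, a 2.65-fold difference. Over the whole lists, regions without an annotated start in reach also leaned to yolk sac, with 40.3% yolk-sac-only and 8.01% liver-only. The direction changed with the way the lists were cut, and the part played by list length was not tested. Keeping the best-scoring 50% per library left 6 and 8 territory peaks in liver against 16 and 13 in yolk sac. Setting the lengths equal shortens almost only the yolk sac lists. With 24333 peaks per list the counts were 22 and 23 for liver against 15 and 17 for yolk sac, and away from starts 8 and 9 against 8 and 7.

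By gene, 4 territories (Hc, C4b, Cfi and Masp1) had higher counts in each yolk sac library than in any of liver, where 46.1% of protein-coding genes with a peak had such an excess. None of the 7 had the reverse, which was seen at 7.47%. With lists of equal length the excess was gone from all 4: Masp1 had 3 and 3 against 5 and 3 peaks, Hc 1 and 3 against 2 and 1, and C4b 1 and 0 against 0 and 1. Cfi had 5 and 5 against 2 and 3, and C3, at 5 and 6 against 2 and 3, also had more in both liver libraries. Such a liver excess was then found at 26.8% of genes, and the yolk sac excess at 14.8%.

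**Figure D5:**
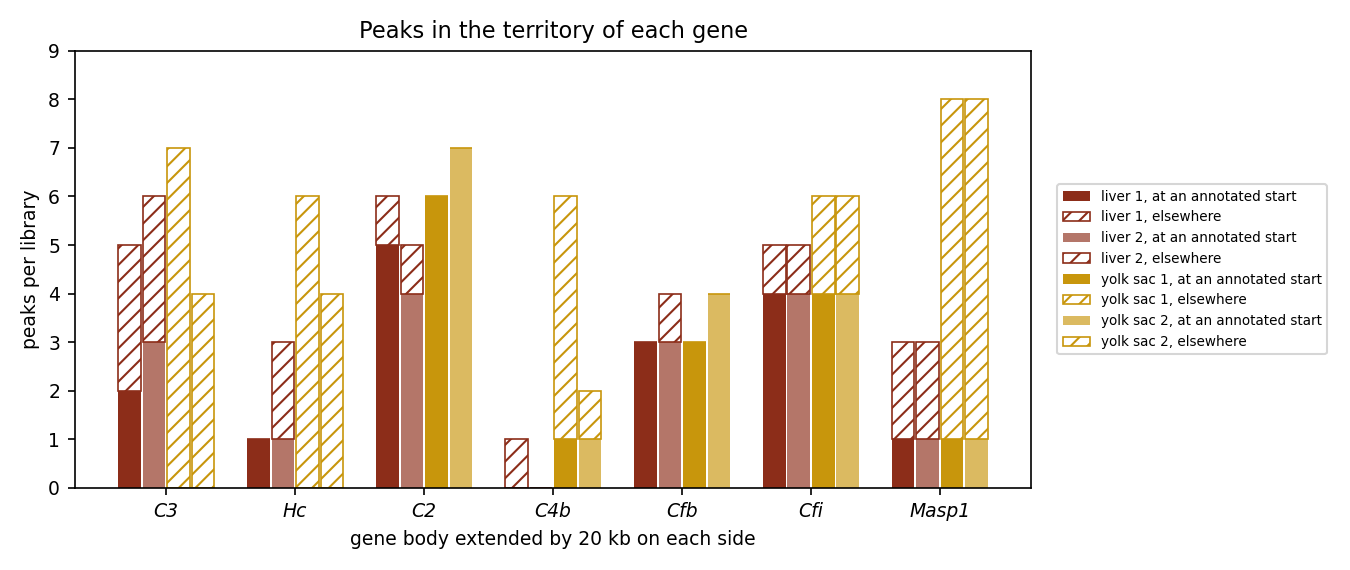
Number of peaks per library in each gene's body extended by 20 kb on each side, as stacked bars with peaks at any annotated start filled and other peaks hatched. Masp1 has 8 peaks in each yolk sac library against 3 in each liver library, and peaks away from starts make up most of the yolk sac excess.

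Merging the 4 lists gave 49 regions in the territories, of which 12 were common to all 4 libraries, 4 liver-only (background 6.62% of all regions) and 14 yolk-sac-only (33.0%). Of the 31 regions without an annotated start in reach, 11 were yolk-sac-only, 1 liver-only and 2 common to all 4 libraries. The distal regions of the whole genome were 40.3% yolk-sac-only, 8.01% liver-only and 8.92% common. The only distal liver-only region was the one inside Masp1, and both common ones lay upstream of C3. Of the 18 regions at starts, 10 were common, against 64.7% of all such regions. A further 3 were liver-only and 3 yolk-sac-only, against 3.40% and 16.0% of all regions at starts.

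Of 47 further genes of the complement pathway, 21 and 23 had a promoter peak in liver and 25 and 26 in yolk sac (exact permutation p = 0.333). Over all protein-coding genes the shares were 56.1% and 57.9% in liver and 63.8% and 62.4% in yolk sac. With equal list lengths the numbers were 21 and 23 against 19 and 19. That cut takes peaks almost only from yolk sac and left the liver numbers unchanged, so the new order does not test the tissues. Keeping the best-scoring 50% per library gave 8 and 9 in liver against 20 and 16 in yolk sac. In all 4 libraries 15 were called and in none 16, with 5 called in both liver libraries alone, 8 in both yolk sac libraries alone and 3 in other combinations. Of all protein-coding genes 53.8% were called in all 4, 1.01% in liver only and 5.25% in yolk sac only. The share of them called in none is not given here. Genes of the lectin pathway and of the terminal pathway were found on both sides. The liver-only genes were Mbl1 and Fcnb, which recognise microbial sugars, C8a and C8b, chains of the membrane attack complex, and Cpn2, a subunit of the enzyme that trims C3a and C5a. All 5 were still liver-only with lists of equal length, but that cut can remove yolk sac calls and hardly any liver call, so it did not test them. The yolk-sac-only genes were C1qa, C1qb and C1qc, the chains of C1q, the protease gene C1ra, C4a, the lectin gene Colec11, the terminal component C6 and the receptor gene C3ar1. With equal lengths C1qa, Colec11, C6 and C3ar1 were still called in both yolk sac libraries, C1qb in 1, and C1qc, C1ra and C4a in none. The C1q genes are 3 of the 8 macrophage markers above. The other 5 macrophage markers had promoter peaks at 3 and 3 in liver and at 5 and 4 in yolk sac.

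Regulators of the pathway were read as a further group. Of 6 membrane regulators, which protect the body's own cells, 5 were called in all 4 libraries, among them Cd46, Cd55 and Cd59a, where 53.8% of all protein-coding genes were. Among regulators in plasma, Serping1, which inhibits the C1 proteases, Vtn, Clu and Cpn1 were called in all 4 libraries, and Cpn2 in liver only. Both remaining genes of the alternative pathway, Cfd and Cfp, had no promoter peak in any library, and neither did C9, C7, Mbl2 or Masp2. They were among the 16 list genes called in no library. The share of all protein-coding genes with that pattern is not given here, so the lack cannot be set against it.

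The gene whose 4 promoter percentiles were nearest to those of each member was also sought among protein-coding genes, with 0 where no peak was called. Over the 4 libraries it was Nacad for C3 (4.53 percentile points away), Abca6 for Hc (2.29), Elmod1 for C4b (1.37), Micu2 for Cfi (4.17) and Cdkn1c for Masp1 (4.002). For C2 it was Ehmt2, at a distance of 0, because the highest-scoring peak of C2 is the one at the Ehmt2 start. Cfb, with 1 call, was not compared.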

How the data were processed

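PRO-seq was measured in 2 liver and 2 yolk sac libraries. The authors deposited 1 peak list per library, not pooled, with a score per peak of 0.80 or more. The submitters' processing notes name Bowtie2, bedtools and the build mm10, and the dREG version and filters are not given in the sources used here. Peaks were set against GENCODE M21 (GRCm38) and coordinates are 1-based. Lists were handled with Python 3.11.15, numpy 2.4.6 and pandas 2.3.3. The main start is that of the transcript with the suffix 201. Peaks were counted in territories by midpoint, and regions are peaks of any library that overlap by 1 bp or more. Tests were exact two-sided permutations over 6 assignments of libraries. Promoter calling was tested on simulated lists, which returned 200 of 200 planted genes. The members and lists were chosen with earlier results of these data known. Genes named are the 7 members, tissue-only genes of the complement list, neighbours with a start in reach and the nearest gene by percentile. Other genes named were chosen after their values were seen. A result for 1 gene of the list is not reported here. Labels do not say whether the pools came from separate litters, so p-values measure only the spread between these libraries, which may be technical. The replicate numbers were not found to pair the samples (r = -0.0106 across 11805 genes between deviations of same-numbered libraries).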

Additional observations from a re-analysis of the deposited data

How the results depend on the processing

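No p-value could pass a threshold here, so a value counts as moved when it left the main value by more than the replicate SD, or a count by more than 1.5 times. With 24333 peaks per list, the log2 ratio of territory peaks turned from -0.68 to 0.49, that of peaks away from starts from -1.40 to 0.18, and the difference of complement list genes from -3.5 to 3, while that of members became 2.5 in place of 0.5. In the higher-scoring 50% the territory ratio was -1.05, the list difference -9.5 and the number of members called in 1 tissue only 0 in place of 3. No ratio away from starts could then be formed, at 0 and 0 against 8 and 5 peaks. A window of 1000 bp left 1 member called in 1 tissue only, C3. Without C4b the member difference was 1.5, and with a flank of 10 kb the ratio away from starts was -1.79. Leaving out each library gave territory ratios from -0.83 to -0.51, ratios away from starts from -1.67 to -1.08, member differences from 0 to 1 and list differences from -4.5 to -2.5. The lowest sizes of both ratios came without yolk sac replicate 1. With the replicate block the values were the same (-0.68 for territory peaks) and the smallest possible exact permutation p was 0.5. Other windows, starts, flanks and overlaps moved none of these. At unknown depth, a missing peak is not an absence of transcription.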
